A study of Mus musculus with 4 samples.

Results

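The genes described here encode the carrier proteins, apolipoproteins and protease inhibitors that hepatocytes release into blood plasma, together with enzymes that load and remodel lipoproteins. They were chosen by symbol from a list of 36 names, and each name matched 1 row of the 54838 genes in the deposited tables. RNA was sequenced from Hepa1-6, a mouse hepatocellular carcinoma cell line grown in culture, in 2 groups of 2 libraries. The libraries called NC carry wild-type Acvr2a, and the libraries called KO carry an Acvr2a knockout. Acvr2a encodes a type II receptor for activin. The design text speaks of knockout subclones, and whether KO 1 and KO 2 are separate subclones, or separate cultures of 1 subclone, is not given in the sources used here. The p-values below therefore measure the spread between these libraries, which may be technical. The labels name no treatment, time or passage for either group.

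The liver secretes most of the soluble proteins of plasma. Albumin, transferrin, ceruloplasmin, hemopexin and retinol-binding protein carry fatty acids, iron, copper, heme and vitamin A. Alpha-fetoprotein is the fetal relative of albumin, is shut down in liver after birth and often returns in liver tumours. Apolipoproteins give lipoprotein particles their structure and their signals: ApoB is the scaffold of particles leaving the liver, ApoE is a ligand for the receptors that clear remnants, and ApoC2 activates lipoprotein lipase. Transcription of many of these genes in hepatocytes rests on HNF4, FOXA and C/EBP factors.

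Albumin and alpha-fetoprotein are neighbours on the same chromosome that differed in opposite directions below, and hemopexin had the largest fall of the list. The 250 bases upstream of their annotated starts are shown for that reason, 5′ to 3′ on the strand of the gene, from RefSeq on GRCm38.p6. They lie at chr5:90460620-90460869 (plus strand) for Alb, chr5:90490464-90490713 (plus) for Afp and chr7:105600117-105600366 (minus) for Hpx. Positions count back from the RefSeq starts, which differ from the GENCODE starts given further on. Capitals mark matches to any of 4 motifs searched on both strands.
Alb: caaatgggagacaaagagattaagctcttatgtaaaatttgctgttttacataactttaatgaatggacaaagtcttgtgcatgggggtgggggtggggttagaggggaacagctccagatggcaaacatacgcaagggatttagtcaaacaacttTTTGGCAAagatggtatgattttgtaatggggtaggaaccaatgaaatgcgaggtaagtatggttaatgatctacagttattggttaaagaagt
Afp: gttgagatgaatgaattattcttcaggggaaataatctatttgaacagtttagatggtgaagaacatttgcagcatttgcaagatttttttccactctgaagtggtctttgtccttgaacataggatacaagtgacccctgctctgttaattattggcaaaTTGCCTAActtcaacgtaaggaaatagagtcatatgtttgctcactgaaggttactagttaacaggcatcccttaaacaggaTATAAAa
Hpx: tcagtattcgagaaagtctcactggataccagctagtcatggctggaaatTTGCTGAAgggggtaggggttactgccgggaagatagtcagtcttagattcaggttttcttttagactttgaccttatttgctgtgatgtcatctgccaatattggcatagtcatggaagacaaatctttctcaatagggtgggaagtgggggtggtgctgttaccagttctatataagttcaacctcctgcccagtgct
The motifs were an HNF4 core (CAAAGTCC), a C/EBP motif (TTGCNNAA), a FOXA motif (TGTTTAC) and a TATA box (TATAAA). Alb holds a C/EBP match at -94 to -87. Afp holds a C/EBP match at -89 to -82 and TATAAA at -7 to -2. Hpx holds a C/EBP match at -200 to -193. Some genes of the list had no window in the set used here, which does not show that RefSeq lacks their starts. Windows were searched for 30 of the 36 genes, with 39 starts in all. The C/EBP motif was in 33.3% of these windows, against 9.56% of the 32851 windows of the same length over all genes. TATAAA was in 28.2% against 12.4%, the FOXA motif in 10.3% against 3.17%, and the HNF4 core in 0 of 39 windows against 1.20%. These are letter matches in a short window and not binding sites.

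Library totals lay between 11597923 and 13910582 counts. Acvr2a itself was counted 81 and 108 times in NC against 75 and 97 in KO, with a log2 fold change of -0.21 (standard error 0.20, adjusted p = 0.433 in edgeR's quasi-likelihood test), so its RNA level did not set the libraries apart and the group names follow the labels. Its count is a total over the gene and does not show whether the transcript was edited. Of the hepatocyte and hepatoma markers, Krt18, Alb, Krt8, Hnf4a and Foxa3 were present in every library and Ttr was at 0.10 TPM or less. Summed endothelial markers reached at most 0.48 TPM and summed leukocyte markers at most 0.68 TPM. Markers of bile duct cells summed to 77.5 and 92.2 TPM in NC and 121 and 114 TPM in KO; Krt19, Krt7 and Epcam rose and Sox9 fell, none of the 4 was at 0, and their part in the results below was not tested. Of 6 fibroblast and stellate markers, Dcn was at 1032 to 1234 TPM, Des rose from a low level, Col1a1 passed the count filter in KO alone, with 6 and 5 counts in NC against 38 and 41 in KO, and Lrat was at 0; the list summed to 1033 and 1095 TPM in NC and 1233 and 1239 TPM in KO, and its part was not tested either.

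Only part of the plasma protein programme was read in these cells. Of the 36 genes, 19 had enough counts to be tested, 11 had counts too low for the filter and 6 had none. TPM, the deposited level scaled to transcript length, allows the genes to be set side by side. Summed over the list it was 5841 and 5653 in NC and 4379 and 4022 in KO, or 0.584% and 0.565% against 0.438% and 0.402% of all TPM. Apoe alone made up 57.2% and 56.7% of the sum in NC and 44.8% and 40.2% in KO. Without Apoe the NC libraries summed to 2501 and 2446 and the KO libraries to 2419 and 2404. The net fall of the total in KO thus lay almost wholly in Apoe, since the other genes nearly balanced. Alb and Trf were higher in KO, and Rbp4, Afp, Apoc2, Itih2 and Apoc4 were lower. The order of the 6 highest genes was Apoe, Rbp4, Alb, Trf, Itih2 and Apoc2 by mean TPM, and these 6 held 93.1% to 94.6% of the sum in each library. Rbp4 stood above Alb in NC 1, NC 2 and KO 1 and below it in KO 2.

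**Figure D1:**
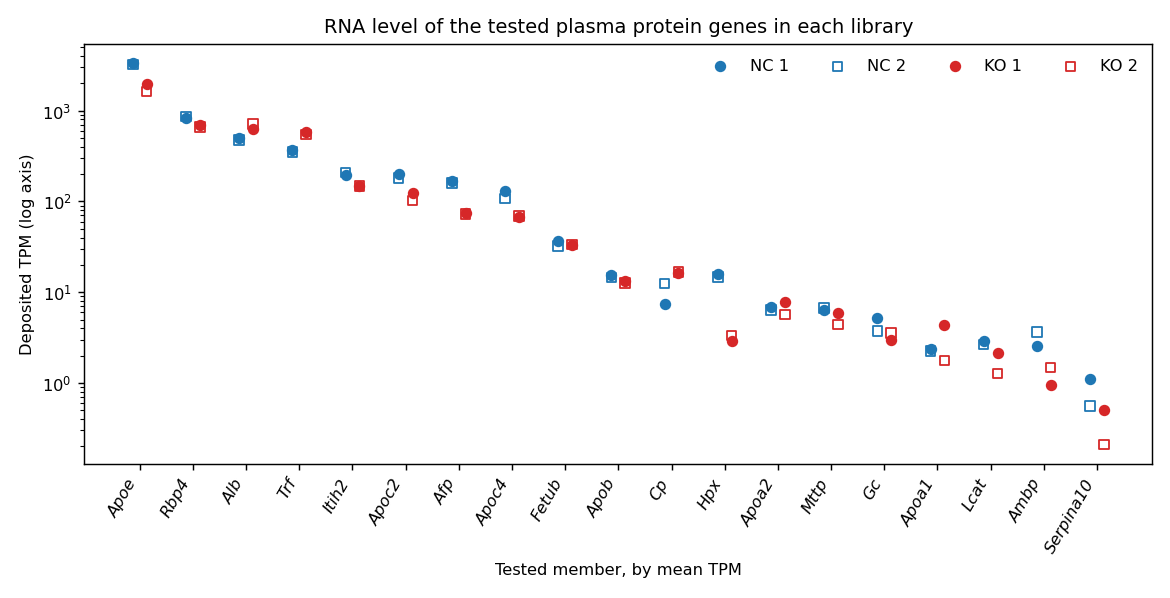
Deposited TPM (log axis) of the 19 tested genes in each library, ordered by mean TPM; circles are replicate 1 and squares replicate 2, blue NC and red KO. Levels run from Apoe, between 1619 and 3340 TPM, to Serpina10, between 0.21 and 1.12 TPM.

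Between KO and NC, 3 of the 19 tested genes were higher and 10 were lower past an adjusted p of 0.05. One of the 10, Serpina10, passed the count filter through NC alone, the group where it is higher. Of the 18 members that passed in both groups, 3 (16.7%) were higher and 9 (50.0%) lower, with a median log2 fold change of -0.44; of the 11618 genes that did so over the whole table, 18.8% were higher and 19.2% lower, with a median of -0.016. Over all 12510 genes tested, 37.9% passed, 19.7% higher and 18.2% lower; rises made up 51.87% of these calls, and 67.98% of the calls of limma on filtered log2(TPM + 1). The list was put together with earlier results of these data known, so these shares are a description and carry no test. For 15 of the 19 the CPM of every KO library lay on 1 side of both NC libraries, as it did for 69.4% of all tested genes. With limma over TPM without a filter on low values none of the 13 calls held, with 0 calls over all genes and 4506 at an unadjusted p under 0.05. In RNA from whole cultures, fewer cells that express a gene and less RNA per cell cannot be told apart.

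**Figure D2:**
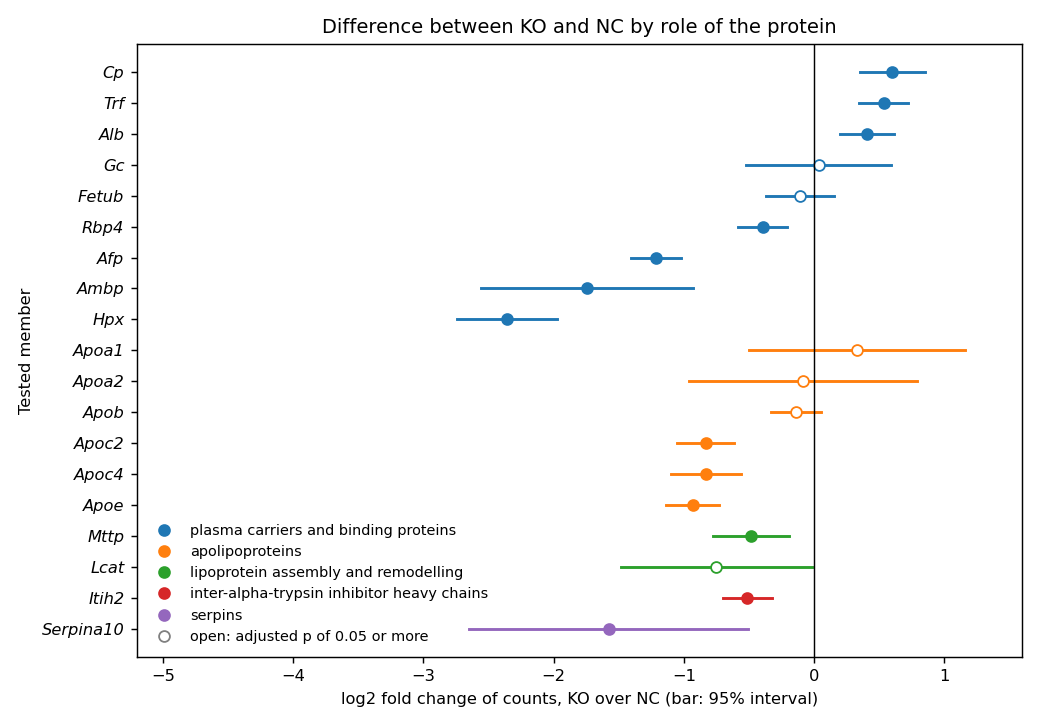
log2 fold change of counts (KO over NC, edgeR fit) with its 95% interval for the 19 tested genes, grouped and coloured by the role of the protein; open circles have an adjusted p of 0.05 or more. Cp, Trf and Alb lie to the right of 0, and Hpx at -2.36 lies farthest to the left.

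Carrier and binding proteins moved both ways. Of 9 tested, Alb, Trf and Cp rose (33.3%, against 19.7% over all genes tested). Afp, Hpx, Ambp and Rbp4 fell (44.4% against 18.2%), while Fetub and Gc did not pass the test. Alb (chromosome 5, 90460897 to 90476602 on GRCm38), the most abundant plasma protein in the adult, was at 498 and 473 TPM in NC and 624 and 713 TPM in KO. Both KO libraries were above both NC libraries. In CPM (counts scaled to library size) it went from 799.0 ± 58.0 to 1058 ± 131 (SD, n = 2), a log2 fold change of 0.41 (standard error 0.10, adjusted p = 0.00224, edgeR quasi-likelihood as in all single-gene results here). With KO 2 left out it was 0.27 (adjusted p = 0.0388), the smallest value among the fits that left out a library.

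Afp (chromosome 5, 90490737 to 90508907) begins 14.1 kb past the end of Alb on the same strand. It was at 167 and 160 TPM in NC and 74.1 and 72.9 TPM in KO. The 2 libraries of each group lay close together and far from the other group. Its CPM fell from 267 ± 19.3 to 115 ± 1.20 (SD, n = 2), with a log2 fold change of -1.21 (standard error 0.09, adjusted p = 1.01e-10). The ratio of Alb to Afp TPM was 2.97 and 2.95 in the NC libraries against 8.42 and 9.77 in the KO libraries. The sequences above show that both genes have a C/EBP match in the window shown. Afm, which encodes another albumin relative and lies next to Afp, had 21 counts in all libraries together and was not tested.

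Trf (chromosome 9, 103204001 to 103230444), encoding the iron carrier transferrin, was at 371 and 350 TPM in NC and 586 and 547 TPM in KO. Its CPM was 386 ± 6.10 in NC and 559 ± 6.73 in KO (SD, n = 2), a log2 fold change of 0.54 (standard error 0.09, adjusted p = 4.31e-05). Trf shares exons on the same strand with Gm20425, which had 0 counts in each library. Cp (chromosome 3, 19957054 to 20009145), which encodes the copper-binding ferroxidase ceruloplasmin, was counted 234 and 293 times in the NC libraries and 404 and 441 times in the KO libraries. Its log2 fold change was 0.60 (standard error 0.12, adjusted p = 0.000315), the largest rise among the tested members. Its TPM was 7.50 and 12.53 in NC against 16.40 and 16.71 in KO, and in limma on the filtered log2(TPM + 1) scale the call was lost (adjusted p = 0.0568). The exons of Cp overlap those of Hps3 on the other strand, and whether reads were counted by strand is not given in the sources used here.

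Hpx (chromosome 7, 105591613 to 105600137) encodes hemopexin, which binds free heme. The NC libraries held 215 and 230 reads of it and the KO libraries 41 and 51. In TPM this was 16.0 and 14.8 against 2.87 and 3.33, and the groups were well apart. The log2 fold change of -2.36 (standard error 0.19, adjusted p = 2.06e-10) corresponded to a 5.13-fold lower level in KO, and leaving out any 1 library gave values from -2.51 to -2.23. Among all genes tested, 1.13% were called and more than 2-fold lower. Ambp (chromosome 4, 63143275 to 63154799), whose product is cut into alpha-1-microglobulin and bikunin, was low, at 28 and 46 counts for NC against 11 and 12 for KO. Its log2 fold change was -1.75 (standard error 0.40, adjusted p = 0.00102), with a 95% interval from -2.56 to -0.93.

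Rbp4 (chromosome 19, 38116629 to 38125281) encodes the plasma carrier of retinol. It was at 834 and 863 TPM in NC and 699 and 664 TPM in KO, without overlap. The change was modest, at -0.39 on the log2 scale of counts (standard error 0.09, adjusted p = 0.00115), and the call was lost in limma on filtered log2(TPM + 1) (adjusted p = 0.0717). Stra6, the cell-surface receptor for this carrier, was read at 674 and 699 TPM in NC and 537 and 510 TPM in KO, with a log2 fold change of -0.47 (standard error 0.09, adjusted p = 0.000239). Ttr, which encodes the partner that holds the retinol carrier in plasma, had 2 counts in all libraries together.

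Fetub and Gc did not pass. Fetub, a fetuin that inhibits proteases, had a log2 fold change of -0.11 (95% interval -0.37 to 0.15, adjusted p = 0.522) at about 34.0 TPM. Gc, the vitamin D-binding protein gene, stood at 42 and 54 counts for NC against 46 and 58 for KO, a log2 fold change of 0.035 (95% interval -0.52 to 0.59, adjusted p = 0.937). Its sign turned on the TPM scale (-0.36 with a pseudocount of 1). Ahsg, the fetuin gene beside Fetub, had 3 counts in NC and 2 in KO, although Fetub lies within the same 48502 bases and had between 303 and 351 counts per library.

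Among 12 apolipoprotein genes, 6 were tested. Apoe, Apoc2 and Apoc4 fell (50.0% of the 6, against 18.2% over all genes tested) and 0 rose (against 19.7%). These lie side by side on chromosome 7 between 19671579 and 19699188, on the minus strand. Apoe (19696109 to 19699188) was at 3340 and 3207 TPM in NC and 1960 and 1619 TPM in KO. It was the 52nd highest gene of all by mean TPM, and each KO library was below each NC library. Its CPM went from 2381 ± 149 to 1247 ± 113 (SD, n = 2), a log2 fold change of -0.93 (standard error 0.10, adjusted p = 4.25e-08).

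Apoc2 (19671579 to 19677941) was at 199 and 181 TPM in NC and 123 and 103 TPM in KO, a log2 fold change of -0.83 (standard error 0.11, adjusted p = 8.26e-07). Apoc4 (19678083 to 19681479), a minor apolipoprotein of very-low-density particles, was at 130 and 108 TPM in NC and 67.4 and 68.7 TPM in KO, with a log2 fold change of -0.83 (standard error 0.13, adjusted p = 1.62e-05). Neither gene's groups overlapped. Both share exons on the same strand with Gm44805, an annotated gene that spans them, so reads could be divided among the 3. Gm44805 itself had a log2 fold change of -1.47 (standard error 0.20, adjusted p = 2.55e-06). Added together they came to 1402 and 1461 counts for NC against 832 and 817 for KO, or 114 ± 12.6 against 61.8 ± 1.89 CPM (SD, n = 2). The log2 ratio of these mean CPM values was -0.89, between those of Apoc2 (-0.83) and Apoc4 (-0.84) and that of Gm44805.

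Apoc1 lies between Apoc4 and Apoe and was nearly silent. The NC libraries held 0 and 1 counts of it, and the KO libraries 4 and 5. The ratio of KO to NC was 8.69 with a 95% exact interval from 1.20 to 381, which covers counting error only, and the gene was under the filter. Genes on either side of the cluster, chosen only for their place, also differed between the groups. Tomm40, which ends 2125 bases upstream of Apoe, had a log2 fold change of -0.70 (standard error 0.10, adjusted p = 2.14e-06), Clptm1 -0.29 (adjusted p = 0.0148) and Relb -0.52 (adjusted p = 0.000267). Nectin2, next after Tomm40, rose by 0.40 (standard error 0.09, adjusted p = 0.00125).

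**Figure D3:**
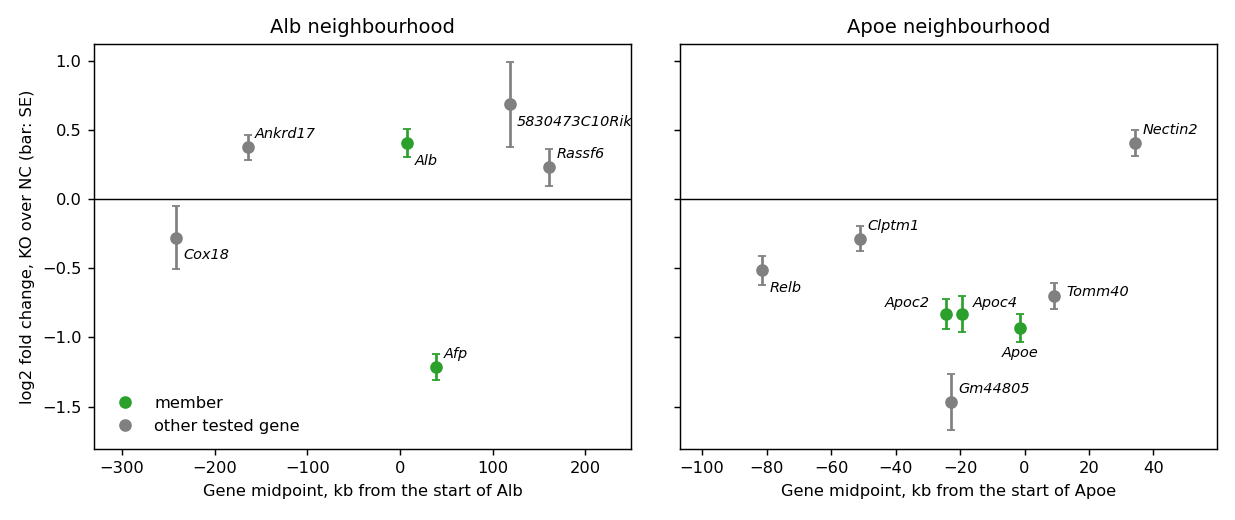
log2 fold change (KO over NC, bar: SE) against the distance of each tested gene's midpoint from the start of Alb (left) or Apoe (right); green points are genes of the list and grey points other tested genes. Alb at 0.41 and Afp at -1.21 fall on opposite sides of 0, while Apoe, Apoc4 and Apoc2 lie between -0.93 and -0.83.

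Apob (chromosome 12, 7977648 to 8016835), the structural protein of liver lipoproteins, did not pass: it was at 15.6 and 14.5 TPM in NC and 13.4 and 12.7 TPM in KO. The groups did not overlap, but the log2 fold change of -0.14 had a 95% interval from -0.33 to 0.056 (adjusted p = 0.262). The high-density lipoprotein genes were low. Apoa1, encoding the main protein of these particles, stood at 20 and 22 counts for NC against 39 and 17 for KO, so that KO 1 stood above and KO 2 below both NC libraries (log2 fold change 0.33, 95% interval -0.50 to 1.16, adjusted p = 0.549). Without KO 1 the value was -0.41. Apoa2 had between 15 and 19 counts per library and a log2 fold change of -0.085 (95% interval -0.96 to 0.79). The other genes around Apoa1 on chromosome 9 were at or near 0: Apoc3 and Apoa4 had no count in any library and Apoa5 had 12 counts in each group. Apoh had 1 count and Apom 2 counts in all.

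Of the proteins that load and remodel lipoproteins, Mttp fell and Lcat did not pass. Mttp (chromosome 3, 138089854 to 138144968) encodes the transfer protein that adds lipid to ApoB. Its counts were 247 and 297 for NC against 229 and 182 for KO, a log2 fold change of -0.48 (standard error 0.14, adjusted p = 0.00879). Without KO 2 it was -0.31 and the call was lost (adjusted p = 0.147), as it was with DESeq2 (adjusted p = 0.0592) and in limma on filtered log2(TPM + 1) (adjusted p = 0.280); the exons of Mttp overlap Trmt10a and Gm43691 on the other strand. Lcat, whose enzyme esterifies cholesterol on plasma lipoproteins, stood at 34 and 36 counts for NC against 27 and 17 for KO, with a log2 fold change of -0.75 (95% interval -1.49 to -0.016, adjusted p = 0.1001). Pltp, a phospholipid transfer protein gene, and Lipc, the hepatic lipase gene, had 12 and 9 counts over all libraries.

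The inter-alpha-trypsin inhibitor heavy chains, which bind hyaluronan in the extracellular matrix, were split between 1 expressed gene and 3 that had no reads. Itih2 (chromosome 2, 10094593 to 10131396) was at 197 and 208 TPM in NC and 150 and 147 TPM in KO. Its CPM of 531 ± 0.89 in NC and 372 ± 7.00 in KO (SD, n = 2) gave a log2 fold change of -0.51 (standard error 0.09, adjusted p = 7.21e-05). Itih1, Itih3 and Itih4, which stand together on chromosome 14, had 0 counts in each library. A count of 0 over a group allows a level of up to 0.118 CPM in NC and 0.114 CPM in KO (3 counts, for counting error only).

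Serpins were scarce. Serpina10, which encodes an inhibitor of activated clotting factor X, stood at 19 and 18 counts for NC against 9 and 4 for KO. Since it passed the count filter in NC alone, its log2 fold change of -1.58 is given as a description; the call was lost with DESeq2, on the TPM scales and without NC 1 or KO 2 (-1.40 and -1.10). Serpina1a and Serpina1b, the near-identical genes of alpha-1-antitrypsin that can exchange reads, summed to 7 and 9 counts over NC against 2 and 1 over KO. Serpina7, the thyroxine-binding globulin gene, had 12 counts in NC and 21 in KO, a ratio of 1.69 with a 95% exact interval from 0.79 to 3.77. Serpina6, the corticosteroid-binding globulin gene, had none.

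The list falls into neighbourhoods: 19 of its 36 genes lie within 100 kb of another, in 6 clusters. Activity was uneven inside them. In the clusters of Apoa1, Itih1 and Serpina1a the highest group mean was 3.05 TPM, that of Apoa1 in KO. In the Ahsg cluster and the Apoe cluster, expressed and nearly silent genes stood next to each other.

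Genes that handle lipoproteins at and inside the cell were listed apart. Of 37 names, 29 were tested, 8 rose (27.6%, against 19.7% over all genes tested) and 5 fell (17.2% against 18.2%) past 0.05, with a median log2 fold change of 0.027. One of the 5, Soat1, passed the count filter in NC alone. The 4 with the lowest p all rose. Vldlr, a receptor that binds ApoE-rich particles, rose by 0.65 (standard error 0.10, adjusted p = 7.31e-06) from 11.6 and 13.9 TPM in NC to 22.7 and 23.2 TPM in KO. Apobec1, the enzyme that edits Apob messenger RNA, rose by 0.66 (standard error 0.10, adjusted p = 7.59e-06). P4hb, the chaperone subunit that pairs with the Mttp product, rose by 0.56 (standard error 0.09, adjusted p = 3.17e-05), the opposite sign to Mttp. Lpin1, a phosphatidate phosphatase gene, rose by 0.57 (standard error 0.10, adjusted p = 6.05e-05).

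A further list of 37 names from liver secretion and plasma transport had 14 tested, 3 higher (21.4%, against 19.7% over all genes tested) and 6 lower (42.9% against 18.2%), with a median of -0.34. Serpinf2 and Serpind1, both among the 6, passed the count filter in NC alone, as did Ttpa, which was not called. Without genes of that kind 3 of 11 were higher (27.3%) and 4 lower (36.4%), with a median of -0.22. Of the 11618 genes that passed in both groups over the whole table, 18.8% were higher and 19.2% lower. The list includes 13 names with no count, among them Orm1, Orm2, Pon1 and Serpina1c. Serpinf2, the alpha-2-antiplasmin gene, stood at 37 and 45 counts for NC against 4 and 6 for KO, and its log2 fold change of -3.09 is a description for that reason. Igfbp4 and Igfbp1, genes of binding proteins for insulin-like growth factors, fell by 0.60 (standard error 0.10, adjusted p = 3.46e-05) and 0.54 (standard error 0.09, adjusted p = 5.33e-05). Stra6, given above, completes the 4 with the lowest p and is a receptor and not a secreted protein.

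Among liver-enriched transcription factors more fell than rose. Of 32 names 26 were tested, 12 fell (46.2%, against 18.2% over all genes tested) and 4 rose (15.4% against 19.7%), and the median log2 fold change was -0.24. Hnf4a, encoding a nuclear receptor at the centre of hepatocyte transcription, was at 95.1 and 91.6 TPM in NC and 54.5 and 47.5 TPM in KO, a log2 fold change of -0.995 (standard error 0.09, adjusted p = 4.27e-09). Foxa2, a forkhead pioneer factor gene, fell by 0.89 (standard error 0.09, adjusted p = 3.06e-08) and Nr2f2, an orphan nuclear receptor gene, by 0.79 (standard error 0.11, adjusted p = 1.47e-06). Onecut2, a cut-homeobox factor gene, rose by 0.90 (standard error 0.11, adjusted p = 3.22e-07). Zhx2, a factor known to repress Afp in adult liver and named here after its value was seen, fell by 0.95 (standard error 0.13, adjusted p = 2.94e-06), in the same direction as Afp. The other FOXA and C/EBP genes of the list, also named after the fact, went both ways. Cebpb rose by 0.57 (standard error 0.11, adjusted p = 0.000103) and Foxa1 by 0.37 (standard error 0.13, adjusted p = 0.0299). Foxa3 fell by 0.80 and Cebpg by 0.41, and Cebpa did not pass (-0.22, adjusted p = 0.113). Whether these factors act on the genes above was not tested.

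**Figure D4:**
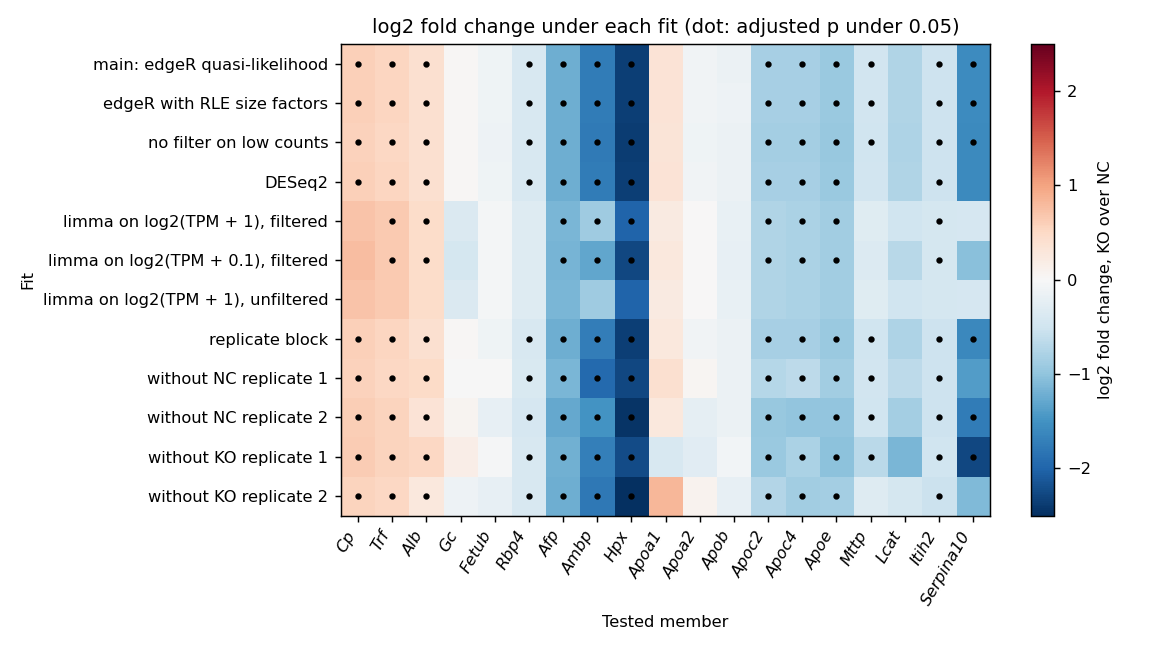
log2 fold change (colour, KO over NC) of the 19 tested genes under the main fit and 11 alternatives, with a dot where the adjusted p was under 0.05. The 13 called genes keep their colour in every row, and the row for unfiltered TPM holds no dots.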

How the data were processed

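RNA-seq libraries of Hepa1-6 cells were made with a directional kit from DNase-treated total RNA, per the labels' protocols. The deposited expected counts are the authors' estimated reads per gene, not normalised, and the deposited TPM values are the authors' length-scaled levels, per the file headers, which carry the column names of RSEM gene tables. The submitters' processing notes name FastQC, STAR, RSEM and DESeq2 and the builds GRCm38 and mm10; versions, annotation and strand setting are not given in the sources used here. RSEM divides reads among similar genes.

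Expected counts were rounded (totals moved by at most 0.000188%), filtered with filterByExpr (minimum count 10), scaled by TMM and tested over 12510 genes with edgeR 4.0.16 (quasi-likelihood, group as the only term, R 4.3.3), with Benjamini-Hochberg adjusted p-values and a threshold of 0.05. A standard error is the log2 fold change over the square root of the F statistic. CPM uses TMM-scaled totals. With 2 libraries a group, an SD is itself poorly known. PCR copies were not separated. The edgeR intervals cover only counting error and the spread between these libraries, estimated for each gene and drawn toward a trend over genes. Coordinates, 1-based, and overlaps come from GENCODE M21 (GRCm38); 53947 of 54838 gene IDs matched with their version.

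The members and lists were chosen with earlier results of these data known. All members are accounted for; 1 marker of the hepatocyte list and 1 motif are not reported here. Full values were set for the 12 with the lowest p past 0.05 and the 6 with the highest TPM. In each other list the 4 with the lowest p are named. Zhx2, Cebpb, Foxa1, Foxa3, Cebpg and Cebpa are given besides, outside that rule. Alternatives were RLE factors, no filter, DESeq2 1.42.0, limma 3.58.1 on log2 TPM, a replicate block and leaving out each library.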

Additional observations from a re-analysis of the deposited data

How the results depend on the processing

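The 13 called members kept their direction under each of 11 alternatives, and all 13 kept the call with RLE factors, no filter on low counts, the replicate block, and without NC 2 or KO 1. DESeq2 kept 11 (without Mttp and Serpina10), as did the fit without KO 2, and the fit without NC 1 kept 12 (without Serpina10). limma on filtered log2 TPM kept 9 (without Cp, Mttp, Rbp4 and Serpina10); the cause was not tested. Over all genes the main fit called 4741 (2459 higher, 2282 lower) and DESeq2 called 3217 (1663 higher, 1554 lower). On filtered log2 TPM limma called 2158 with a pseudocount of 1 (1467 higher, 691 lower) and 2099 with 0.1 (1427 higher, 672 lower). In limma the share of higher calls thus moved from 51.87% to 67.98% with either pseudocount. Over unfiltered TPM 0 genes passed in limma, so that 0 members and 0 genes of any list were called, while 4506 genes had an unadjusted p under 0.05.

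On filtered TPM 1 lipoprotein-handling gene fell with either pseudocount (main value 5) and 1 gene of the further secreted list rose (main value 3), and 7 transcription factors fell with a pseudocount of 0.1 (main value 12). Leaving out 1 library gave 3 to 5 lower lipoprotein-handling genes, the fewest without NC 2, and 1 to 2 higher genes of the secreted list, the fewest without NC 1.

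Gc, Apoa1 and Apoa2, none of them called, changed sign. Gc was 0.035 (-0.36 with TPM + 1, filtered or not, -0.44 with TPM + 0.1, and -0.12 to 0.17 with 1 library left out, including -0.0083 without NC 1), Apoa1 was 0.33 (-0.41 without KO 1 to 0.82 without KO 2) and Apoa2 was -0.085 (0.0096 with TPM + 1, 0.0089 with TPM + 0.1, and -0.28 to 0.088 with 1 library left out, including 0.048 without NC 1). Replicate numbers are shared by the groups, but deviations of same-numbered libraries correlated at -0.012 over genes. That value showed no pairing over the genes as a whole and cannot exclude a pairing that touched part of them. The replicate block called 5006 genes, against 4741 in the main fit, with 3 members higher and 10 lower. Low counts went with wide standard errors, such as 0.43 for Apoa2 (15 to 19 counts per library) against 0.09 for Afp. A large difference could still pass, as for Ambp with 11 and 12 counts in KO (standard error 0.40, adjusted p = 0.00102 in edgeR). No count limit was derived.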
